A study of Mus musculus with 6 samples.

Results

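The genes described here encode the machinery by which new proteins enter the endoplasmic reticulum (ER): the signal recognition particle (SRP) and its receptor, the Sec61 channel with Sec63 and the TRAM proteins, the translocon-associated protein (TRAP) complex, signal peptidase, and the ER membrane protein complex (EMC). They were chosen by function, as a list of 36 genes. Of these, 35 matched a gene of the annotation by symbol, out of 55536 genes counted, and 34 passed the filter on low counts, out of 21465. The gene that did not pass was Tram1l1. The listed Camlg, a receptor for tail-anchored proteins, is called Caml in the annotation, and its values are given with the related genes.

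The data come from 6 mice aged 7 weeks, of which 3 were KOStra8 and 3 HETStra8, with 1 library of whole testis RNA for each. The KOStra8 mice were Sel1Lflox/∆;Stra8-Cre, that is, they carried a floxed and a deleted allele of Sel1L, an adaptor of ER-associated degradation (ERAD), and a Cre recombinase under the Stra8 promoter, which is active in male germ cells. The HETStra8 mice are labelled as Sel1Lflox/∆ littermates, while the study as a whole combines Sel1Lflox/∆ mice with Sel1Lflox/+;Stra8-Cre mice under that name, and no genotype is given for each mouse. A Sel1L allele that is or can be deleted was thus also carried by the controls. The Cre is only partly active in spermatogonia, and Sertoli cells keep Sel1L, so that whole KOStra8 testis still holds cells with the intact floxed allele. In RNA of whole testis, fewer cells of a type and less RNA per cell cannot be told apart.

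The libraries held between 28875108 and 36526695 counts on genes. Sel1l itself, the targeted gene on chromosome 12 from 91806043 to 91849157 (GRCm38, as all positions here), had 1549, 1603 and 1413 counts in the controls, HETStra8 mice 1 to 3, against 846, 636 and 741 counts in KOStra8 mice 1 to 3. Markers of germ cells, Sertoli cells and Leydig cells were all detected. The summed level of 9 markers of leptotene and zygotene spermatocytes lay at 370.0 to 588.7 CPM in HETStra8 and 660.8 to 681.1 CPM in KOStra8 testes, where CPM are TMM-normalized counts scaled to a common library size, and that of 9 Sertoli cell markers at 955.8 to 1146 CPM and 797.5 to 917.0 CPM. No marker of either list was at 0. At an unadjusted p below 0.05, 1 of the 9 leptotene and zygotene markers was higher, beside 7.13% of all genes tested, and 3 of the 9 Sertoli markers were lower, beside 5.12%. The median log2 fold change, KOStra8 over HETStra8, was 0.05 over the first list and −0.16 over the second, so the sum of the first list differed far more than its typical gene. Lower at that threshold were also 2 of 7 macrophage markers (median −0.35), 2 of 9 elongating spermatid markers (median −0.04), and 1 each of 9 round spermatid, 8 Leydig cell and 5 peritubular myoid cell markers (medians −0.07, −0.16 and −0.21), and 1 of 9 pachytene and diplotene markers was higher (median −0.02). The part of cell type shares in the results below was not tested. HETStra8 mouse 3 stood nearer to the KOStra8 mice than the other controls did. It had the highest sum of leptotene and zygotene markers of the 3 controls, and the Spearman rho of its deviation from the mean of all libraries with the GC content of the genes was −0.05, against 0.29 and 0.39 in the other controls and −0.37 to −0.19 in KOStra8 mice. HETStra8 mouse 1 stood apart from all others on the first principal component, at −57.2 against −10.2 to 28.7, with the highest summed levels of Leydig cell markers, 755.2 CPM against 427.8 to 559.5 CPM, and of epididymis and seminal vesicle markers, 12.1 CPM against 1.79 to 3.03 CPM. Values without HETStra8 mouse 3 or mouse 1 are given below for the results that moved most.

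Most secretory and membrane proteins enter the ER while they are being made. SRP binds the signal sequence as it leaves the ribosome and brings the ribosome to the SRP receptor, and the chain then passes into or through the Sec61 channel, helped by TRAM and TRAP and, for some substrates, by Sec62 and Sec63, which recruits the chaperone BiP. Signal peptidase removes the signal peptide, and the EMC inserts membrane proteins that the Sec61 channel does not insert well. In the testis this machinery serves, among others, the acrosome, a secretory vesicle of spermatids, and the surface proteins of sperm. Proteins that misfold after entry can be returned to the cytosol by ERAD, to which SEL1L belongs.

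None of the 34 members differed between KOStra8 and HETStra8 testes over 2-fold at an adjusted p below 0.01 in edgeR's quasi-likelihood test, where 0.00466% of all genes tested were higher and 0.00466% were lower by these cutoffs. The log2 fold changes of the members, KOStra8 over HETStra8, ran from −0.41 for Emc9 to 0.41 for Mmgt1, with a median of −0.06 beside −0.01 over all genes tested. This median was −0.03 without HETStra8 mouse 1 or KOStra8 mouse 1. Of the 34, 11 lay above 0 and 23 below, where 10405 of all genes tested lay above 0 and 11060 below. Within 0.2 of 0 lay 26 (76.5%), a band that held 58.2% of all genes tested. The median standard error of a member was 0.11 on the log2 scale and that of all genes was 0.18. The 95% interval of the difference lay inside a 2-fold change in either direction for 33 members, Emc9 being the exception, and inside a 1.5-fold change for 31, the exceptions being Emc9, Mmgt1 and Mmgt2.

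At an unadjusted p below 0.05, 2 members were higher in KOStra8 testes, Sec63 and Spcs3, where 7.13% of all genes tested were higher. At the same threshold 3 members were lower, Sec61a1, Ssr2 and Emc10, where 5.12% of all genes were lower. None passed an adjusted p of 0.05, as 0.0233% of all genes did in either direction, and the lowest adjusted p of a member was 0.176, for Emc10. These counts depended on single mice. The number of higher members was 0 without HETStra8 mouse 2 or KOStra8 mouse 1 and 1 without HETStra8 mouse 1, KOStra8 mouse 2 or KOStra8 mouse 3. The number of lower members was 1 without HETStra8 mouse 1 or KOStra8 mouse 1. For these fits the share of all genes was not computed, so a change of the members cannot be told from one of all genes. Without HETStra8 mouse 3, 3 members were higher and 6 lower, where 11.0% and 8.81% of all genes were higher and lower.

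All 3 KOStra8 mice lay above all 3 HETStra8 mice for 2 members, Sec63 and Spcs3, as they did for 9.33% of all genes tested. They lay below for 5 members, Sec61a1, Sec11a, Emc3, Emc8 and Emc10, as they did for 8.43% of all genes. With 1 mouse fewer, groups separate more easily, and 14 members did not overlap without HETStra8 mouse 3 (37.3% of all genes) and 14 without KOStra8 mouse 2 (30.4% of all genes).

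**Figure D1:**
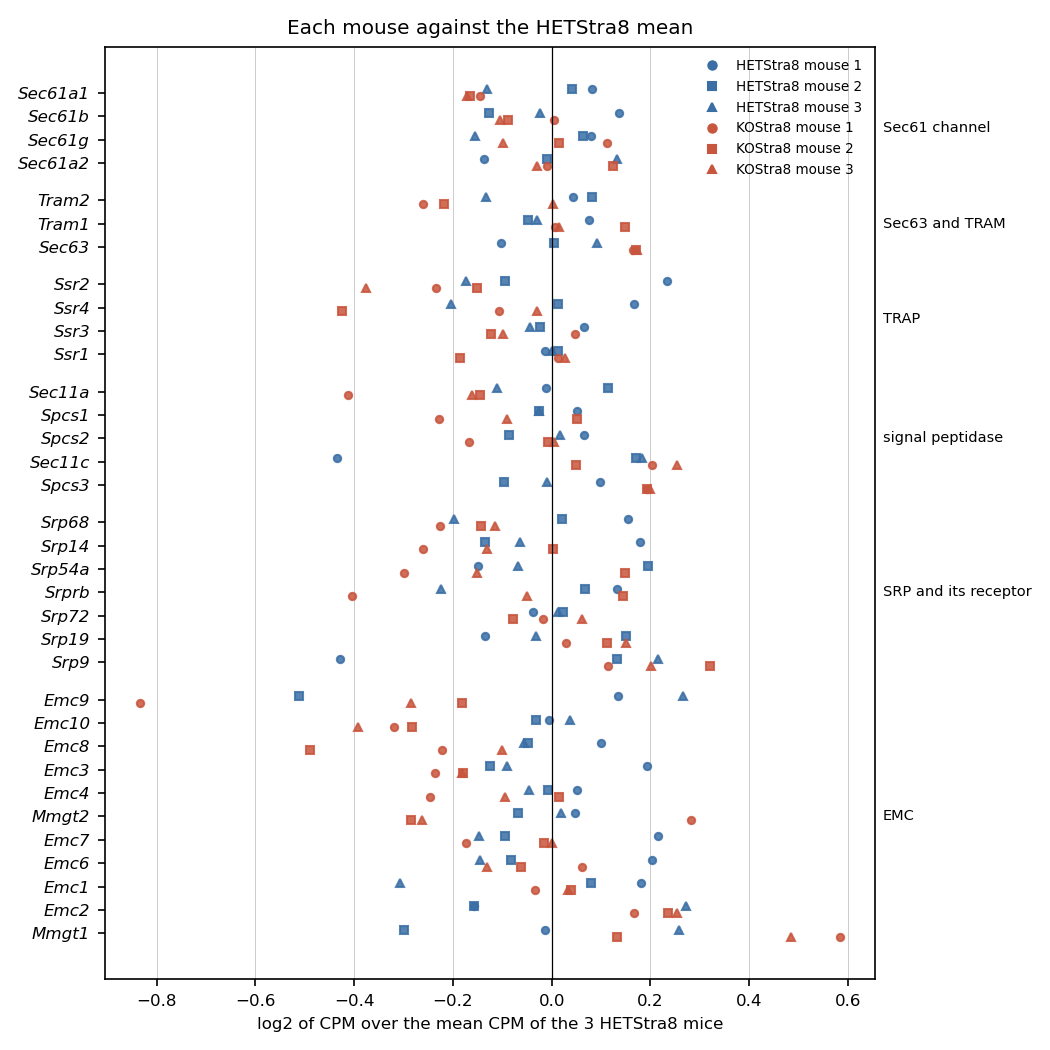
Each point is 1 mouse, and the horizontal axis gives the log2 of its CPM over the mean CPM of the 3 HETStra8 mice, for the 34 members tested, ordered by complex and within it by fold change (HETStra8 blue, KOStra8 red, mouse number by symbol). The red points lie on the right of all blue ones for Sec63 and Spcs3 and on the left of them for Sec61a1, Sec11a, Emc3, Emc8 and Emc10, and the points of most other members overlap.

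Levels of different genes were compared as CPM per kilobase of exonic length. The member with the highest level was Spcs1, a small subunit of signal peptidase, at 103 CPM per kb over the 6 mice, which is the 96.8th percentile of the protein-coding genes tested. Srp14 of the SRP followed at 76.5 CPM per kb, Tram1 at 52.8, Srp68 at 38.3 and Sec61a1 at 33.9. With the longest transcript as the length, Spcs1 and Srp14 still came highest, at 128 and 115 CPM per kb, followed by Sec61a1 and then by Tram1, at 56.8. Lowest were Mmgt1, Emc9 and Mmgt2, at 0.883, 0.710 and 0.479 CPM per kb, and Tram1l1 at 0.100. Subunits that act in 1 complex thus differed widely in transcript level by this scale. In the EMC the levels ran from 0.479 CPM per kb for Mmgt2 to 28.5 for Emc4, and in the SRP and its receptor, leaving out Srp54a, which is one of several copies, from 4.74 for Srprb to 76.5 for Srp14. Summed over the 35 members, the level per kilobase was 605.9 ± 28.1 (SD, n = 3) in HETStra8 and 577.8 ± 25.9 (SD, n = 3) in KOStra8 testes, and the mice of the groups overlapped.

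**Figure D2:**
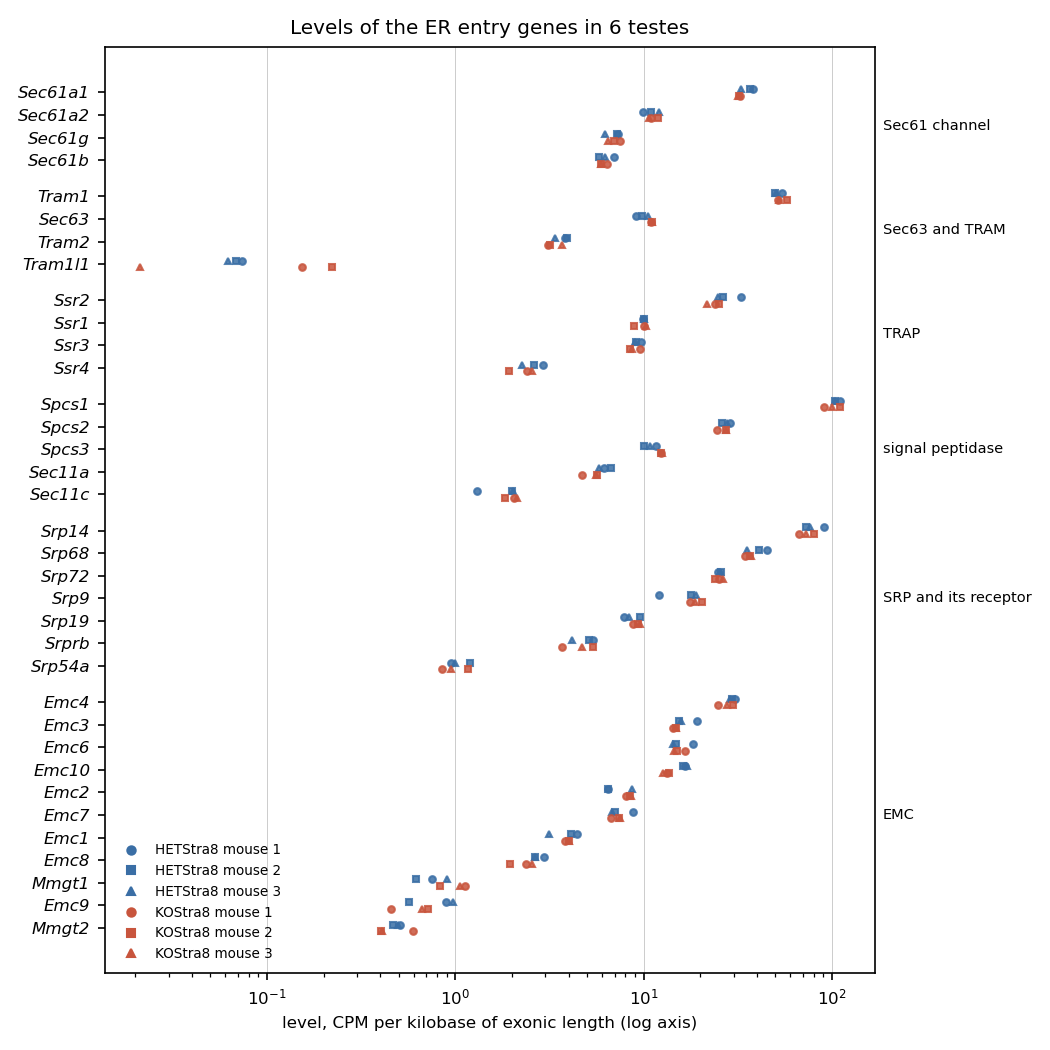
The horizontal axis gives the level in CPM per kilobase of exonic length on a log axis, with 1 point per mouse for each of the 35 members matched, ordered by level within each complex. Spcs1 and Srp14 lie highest, Tram1l1 lies lowest with a wide spread between mice, and the points of the 2 groups lie close together for nearly every gene.

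Some members share sequence or overlap with other genes, which limits how far their counts can be assigned. Of the 35 members, 13 share at least 5% of the 50-base sequences of their transcripts with another gene, and 15 overlap an exon of another gene. Srp54a shared 70.5% and is described with its copies below. Emc1 shared 28.4%, mostly with an RNA on the opposite strand that had 4 to 25 counts per mouse, and Srprb shared 19.9%, mostly with an overlapping gene model on the same strand with 3 to 8 counts. Spcs1 and Sec61a2 overlap Glt8d1 and Nudt5 on the opposite strand. The libraries were directional, but the strand setting of the counting is not given in the sources used here, so reads in these overlaps cannot be assigned with certainty.

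The Sec61 channel consists of an alpha subunit, which forms the pore and is encoded by Sec61a1 or its paralog Sec61a2, and the small subunits Sec61b and Sec61g. The median log2 fold change of the 4 genes was −0.03. Sec61a1 (ENSMUSG00000030082, chromosome 6 from 88503579 to 88518905) was at 255, 248 and 220 CPM in HETStra8 mice 1 to 3 and at 218, 215 and 214 CPM in KOStra8 mice 1 to 3. All 3 KOStra8 mice lay below the controls, narrowly below HETStra8 mouse 3. Its log2 fold change was −0.16 (SE 0.07), with an unadjusted p = 0.0483 and an adjusted p = 0.403 in edgeR's quasi-likelihood test. Without HETStra8 mouse 3 it was −0.21 with an adjusted p = 0.0808, and with a correction for the GC content and length of the genes it was −0.05.

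The other 3 channel genes had log2 fold changes of 0.03 for Sec61a2, 0.01 for Sec61g and −0.06 for Sec61b, with standard errors of 0.09, 0.12 and 0.15, and their groups overlapped. Sec61b and Sec61g have copies of which Gm10320 and Gm10177 are the nearest in sequence, but these had 0 to 1 and 1 to 13 counts per mouse. Sec61a1 made up 75.4% of the alpha subunit transcripts by CPM per kb. HETStra8 mice 1 to 3 had shares of 79.2%, 77.2% and 73.2%, and KOStra8 mice 1 to 3 had overlapping shares of 74.9%, 72.8% and 74.8% (two-sided exact permutation test, p = 0.3, adjusted p = 0.375 over the 5 sets of paralogs compared here).

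Sec63, a membrane protein with a J domain that couples the channel to BiP, is encoded on chromosome 10 from 42761496 to 42832514. Its level was 80.4, 86.6 and 92.1 CPM in HETStra8 mice 1 to 3 and at 96.8, 97.2 and 97.4 CPM in KOStra8 mice 1 to 3. The KOStra8 mice were close to each other and above all controls, of which HETStra8 mouse 3 was the nearest. The log2 fold change was 0.17 (SE 0.08, unadjusted p = 0.0492, adjusted p = 0.406 in edgeR's quasi-likelihood test). It was 0.23 without HETStra8 mouse 3 and 0.04 with the correction for GC content and length.

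TRAM1 contacts many signal sequences in the channel, and TRAM2 and TRAM1L1 are its paralogs. Tram1 was at 163 ± 7.61 CPM in HETStra8 and 170 ± 9.76 CPM in KOStra8 testes (SD, n = 3), and Tram2 at 24.7 ± 1.89 and 22.1 ± 2.19 CPM (SD, n = 3). Their log2 fold changes were 0.06 and −0.15, both with overlapping groups. Tram1l1 had 9, 9 and 8 counts in HETStra8 mice against 21, 25 and 3 counts in KOStra8 mice, too few for the test. Tram1 made up 93.6% of the TRAM transcripts by CPM per kb, a share that ranged from 92.6% to 94.4% over the mice (exact permutation p = 0.2, adjusted p = 0.333).

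The TRAP complex sits beside the channel and helps signal sequences that gate it poorly. Its 4 subunits, Ssr1 to Ssr4, had log2 fold changes of −0.04, −0.25, −0.06 and −0.17, all below 0, though that of Ssr1 was 0.03 without KOStra8 mouse 2. Ssr2, the beta subunit, was at 61.4, 48.9 and 46.3 CPM in HETStra8 mice 1 to 3 and at 44.4, 47.0 and 40.2 CPM in KOStra8 mice 1 to 3. HETStra8 mouse 1 stood above all others, and the rest overlapped. Its unadjusted p was 0.0400 (adjusted p = 0.385 in edgeR's quasi-likelihood test), and its log2 fold change went from −0.25 to −0.12 without HETStra8 mouse 1. A processed pseudogene that overlaps Ssr2 on the opposite strand, Gm10704, had 14 to 150 counts per mouse beside 1361 to 1932 of Ssr2. Rtraf, with which Ssr2 shared 9.72% of its 50-base sequences, had 3270 to 4131 counts.

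With the correction for GC content and length, which is described below, the TRAP genes had log2 fold changes of −0.17, −0.13, −0.26 and −0.09 from Ssr1 to Ssr4. Ssr1 and Ssr3, the alpha and gamma subunits, then had the lowest unadjusted p of the 4 in edgeR's quasi-likelihood test, 0.0276 and 0.0184, and none passed the adjusted threshold. Summed per kilobase, the complex was at 55.5, 48.1 and 46.2 CPM per kb in HETStra8 mice 1 to 3 and at 45.9, 44.5 and 43.0 CPM per kb in KOStra8 mice 1 to 3. The sums did not overlap, by a narrow gap between HETStra8 mouse 3 and KOStra8 mouse 1, while the groups overlapped for each of the 4 genes alone. Nor did those of the EMC, at 97.7 to 109.1 CPM per kb in HETStra8 and 92.0 to 97.2 in KOStra8 testes. The sums of the other complexes overlapped. HETStra8 mouse 1 was the highest in both sums that separated. How often sums of other genes separate was not computed, so these cannot be set against all genes. Ssr2 supplied the largest part of the TRAP sum in every mouse.

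Signal peptidase has a catalytic subunit, encoded by Sec11a or its paralog Sec11c, and the subunits Spcs1, Spcs2 and Spcs3. Spcs3, which is needed for catalysis, was at 40.3, 35.2 and 37.4 CPM in HETStra8 mice 1 to 3 and at 43.0, 43.0 and 43.2 CPM in KOStra8 mice 1 to 3. Its groups did not overlap, and the KOStra8 mice were nearly alike. The log2 fold change was 0.20 (SE 0.09, unadjusted p = 0.0483, adjusted p = 0.404 in edgeR's quasi-likelihood test), and it lay at −0.04 with the correction for GC content and length. Spcs3 had the lowest GC content of the members tested, 40.2%.

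Sec11a was at 28.5, 31.1 and 26.6 CPM in HETStra8 mice 1 to 3 and at 21.6, 26.0 and 25.7 CPM in KOStra8 mice 1 to 3. All KOStra8 mice lay below the controls, KOStra8 mouse 1 by the most. For Sec11a this gave a log2 fold change of −0.23 (SE 0.11, unadjusted p = 0.0527), and −0.34 with the correction (unadjusted p = 0.00708, adjusted p = 0.446 in edgeR's quasi-likelihood test). Sec11c was at 8.93, 13.6 and 13.7 CPM in HETStra8 and 13.9, 12.5 and 14.4 CPM in KOStra8 mice, where HETStra8 mouse 1 stood apart from the other 5. Without that mouse its log2 fold change went from 0.17 to −0.01. Sec11a made up 77.9% ± 4.26 of the catalytic subunit transcripts by CPM per kb in HETStra8 and 72.5% ± 2.91 in KOStra8 testes (SD, n = 3, exact permutation p = 0.2, adjusted p = 0.333).

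Spcs1, the member with the highest level per kilobase, was at 170, 161 and 161 CPM in HETStra8 mice 1 to 3 and at 140, 170 and 154 CPM in KOStra8 mice 1 to 3, with overlapping groups. Its log2 fold change was −0.08, and −0.29 with the correction (unadjusted p = 0.00607, adjusted p = 0.436 in edgeR's quasi-likelihood test). Spcs2 was at 103 to 121 CPM over the 6 mice, with a log2 fold change of −0.06 in both fits. Of the 5 signal peptidase genes, 2 lay above 0 and 3 below, and with the correction 1 lay above and 4 below.

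In the SRP, SRP9 and SRP14 form the part that slows elongation, SRP54 binds the signal sequence, SRP19 is needed to assemble it, and SRP68 and SRP72 bind the body of its RNA, while the protein of Srprb anchors the SRP receptor in the ER membrane. None of these 7 genes reached an unadjusted p of 0.05, and their median log2 fold change was −0.09. Srp9 was at 67.2, 99.1 and 105 CPM in HETStra8 mice 1 to 3 and at 97.9, 113 and 104 CPM in KOStra8 mice 1 to 3, so that HETStra8 mouse 1 lay far below the other 5, which overlapped. Srp14, its partner, was at 108, 86.9 and 91.2 CPM in HETStra8 and 79.6, 95.6 and 87.1 CPM in KOStra8 mice. There HETStra8 mouse 1 was the highest of the 6, and the groups overlapped. Their log2 fold changes were 0.21 (SE 0.15) and −0.12 (SE 0.10). Without HETStra8 mouse 1 they were 0.04 and −0.03, and that of Srp9 was 0.35 without HETStra8 mouse 3.

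Srp68 had a log2 fold change of −0.16 (SE 0.09, unadjusted p = 0.0988), which was −0.24 without HETStra8 mouse 3, −0.08 without HETStra8 mouse 1 and −0.04 with the correction. Its partner Srp72 was at 145 ± 3.17 CPM in HETStra8 and 144 ± 7.01 CPM in KOStra8 testes (SD, n = 3), a log2 fold change of −0.01 with a 95% interval from −0.17 to 0.14. Srp19 and Srprb had log2 fold changes of 0.10 and −0.09 with overlapping groups. Srp54a, with 159 to 216 counts per mouse, was one of 3 copies of the SRP54 gene in this annotation. Srp54b had 5 to 17 counts per mouse and Srp54c 633 to 1167, and since 70.5% of the 50-base sequences of Srp54a occur in other genes, these counts rest on how reads with several matches were treated. The log2 fold change was −0.09 for Srp54a (SE 0.19) and 0.28 for Srp54c (SE 0.16, adjusted p = 0.516 in edgeR's test), with overlapping groups in both. Srp54c was at 20.1, 24.3 and 34.2 CPM in HETStra8 mice 1 to 3 and at 31.3, 32.1 and 31.9 CPM in KOStra8 mice 1 to 3, so that HETStra8 mouse 3 was the highest and the other controls the lowest. Without HETStra8 mouse 3 its log2 fold change was 0.53, at an adjusted p of 0.0115, where 4.90% of all genes tested were below 0.05.

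The EMC contains a membrane-inserting core, to which EMC3 and EMC6 belong, EMC5 (encoded by Mmgt1), cytosolic subunits such as EMC2 and EMC8 or its paralog EMC9, and subunits with large parts in the ER lumen, such as EMC1, EMC7 and EMC10. Of its 11 genes, 3 had log2 fold changes above 0 and 8 below, with a median of −0.06, and 3 lay lower in all KOStra8 mice than in all controls, as 8.43% of all genes tested did. Emc10 (ENSMUSG00000008140, chromosome 7 from 44489937 to 44496529, minus strand) had the lowest p of all members. It was at 48.1, 47.2 and 49.5 CPM in HETStra8 mice 1 to 3 and at 38.7, 39.7 and 36.8 CPM in KOStra8 mice 1 to 3. The groups were well apart, and HETStra8 mouse 3 was here the highest of all.

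The KOStra8 level of Emc10 was 0.796 of the HETStra8 level, a log2 fold change of −0.33 (SE 0.09, 95% interval from −0.52 to −0.15, unadjusted p = 0.00179, adjusted p = 0.176 in edgeR's quasi-likelihood test). Leaving out any of the mice gave −0.35 to −0.30. With DESeq2 the adjusted p of Emc10 was 0.0324 at a log2 fold change of −0.33. The share of all genes at such a p in the DESeq2 fit was not computed, so this value cannot be set against all genes. Over all alternatives the adjusted p of Emc10 lay between 0.0324 and 0.722. Emc10 also had the highest GC content of the members, 60.7%, and with the correction for GC content and length its log2 fold change was −0.18 (unadjusted p = 0.0477), with groups that still did not overlap.

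The 250 bases before a RefSeq start of Emc10 (GRCm38.p6) are shown because they hold the cAMP response element letters TGACGTCA, in capitals, which no other member with a promoter in the RefSeq table has and which 1.79% of the 32851 promoters of that table hold. For comparison, those of Sec63, a member whose groups lay apart in the other direction, are shown with a CCAAT box in capitals.
Emc10 (chr7:44496514-44496763, minus strand): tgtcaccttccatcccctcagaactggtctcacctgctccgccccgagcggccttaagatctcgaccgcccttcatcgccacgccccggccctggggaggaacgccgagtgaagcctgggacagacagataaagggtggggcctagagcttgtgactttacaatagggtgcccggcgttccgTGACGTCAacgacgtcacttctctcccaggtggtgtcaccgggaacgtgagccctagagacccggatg
Sec63 (chr10:42761246-42761495, plus strand): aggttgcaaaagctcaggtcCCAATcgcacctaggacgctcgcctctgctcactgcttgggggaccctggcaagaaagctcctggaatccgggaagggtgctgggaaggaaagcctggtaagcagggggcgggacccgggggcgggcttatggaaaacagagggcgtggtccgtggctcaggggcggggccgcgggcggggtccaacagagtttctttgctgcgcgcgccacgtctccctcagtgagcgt
The element of Emc10 begins 68 bases before this start and 163 bases before a start of the gene that lies further downstream, and the box of Sec63 begins 230 bases before its start. Promoters of 24 members were in the table, from 250 bases before to 50 after the start, and both strands were searched. The ER stress response element, CCAAT and CCACG with 9 bases between them, was in none of the member promoters and in 0.119% of all promoters. The letters TGACGTGG, the core of the element bound by XBP1 and ATF6, were in none of them and in 0.676% of all. The CCAAT box alone, which is also the beginning of the ER stress response element, was found for 8 members (Emc6, Emc9, Sec61g, Sec63, Spcs2, Srp54a, Srp9 and Ssr3). These are 33.3% of the members with a promoter in the table, beside 41.1% of all genes with one. TGACGTCA was found for 1 member, which is 4.17% of those with a promoter in the table, beside 2.03% of all genes with one. Of the members without overlap that had a promoter in the table, only Sec63 had a CCAAT box and only Emc10 had TGACGTCA. All of these are matches of letters in these windows, and whether they go with the separation of the groups was not tested.

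Emc3, the insertase subunit, was at 64.5, 51.7 and 53.0 CPM in HETStra8 mice 1 to 3 and at 47.9, 49.8 and 49.7 CPM in KOStra8 mice 1 to 3, and Emc8 at 18.5, 16.7 and 16.6 CPM and at 14.8, 12.3 and 16.1 CPM. In both genes all KOStra8 mice lay below all controls by a narrow gap, and HETStra8 mouse 1 was the highest. The log2 fold changes were −0.20 (SE 0.10, unadjusted p = 0.0614) for Emc3 and −0.26 (SE 0.13, unadjusted p = 0.0608) for Emc8. With the correction they were −0.15 and −0.20. That of Emc3 was −0.09 without HETStra8 mouse 1, and that of Emc8 was −0.16 without KOStra8 mouse 2.

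Emc2 differed between the controls. It was at 24.2, 24.2 and 32.6 CPM in HETStra8 mice 1 to 3 and at 30.3, 31.8 and 32.2 CPM in KOStra8 mice 1 to 3, so that HETStra8 mouse 3 was as high as the KOStra8 mice and the other controls were below them. The log2 fold change was 0.22 (SE 0.12, adjusted p = 0.472 in edgeR's quasi-likelihood test) with all mice, 0.39 (adjusted p = 0.0410) without HETStra8 mouse 3 and 0.04 with the correction for GC content and length. It was the only member at an adjusted p below 0.05 without that mouse, where 4.90% of all genes tested were.

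Mmgt1 and Emc9 had the largest log2 fold changes of the list in either direction and were, with Mmgt2, among its least counted genes. Mmgt1 was at 3.18, 2.61 and 3.84 CPM in HETStra8 mice 1 to 3 and at 4.81, 3.52 and 4.49 CPM in KOStra8 mice 1 to 3, with a log2 fold change of 0.41 (SE 0.23) and an adjusted p of 0.469 in edgeR's quasi-likelihood test. Emc9 was at 2.19, 1.40 and 2.40 CPM and at 1.12, 1.76 and 1.64 CPM, with a log2 fold change of −0.41 (SE 0.32) and an adjusted p of 0.631. The groups overlapped in both, and with 88 to 168 counts of Mmgt1 and 39 to 80 of Emc9 per mouse, differences of this size were not resolved. Leaving out 1 mouse moved the log2 fold change of Mmgt1 between 0.28 and 0.57, the latter without HETStra8 mouse 3, and that of Emc9 between −0.61 and −0.22. Mmgt2, the paralog of Mmgt1, had a log2 fold change of −0.06 (SE 0.26).

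The remaining EMC genes were close to 0. Emc1 had a log2 fold change of 0.02, Emc4 of −0.10, Emc6 of −0.04 and Emc7 of −0.06, with standard errors of 0.10 to 0.12 and overlapping groups. Among the paralogs, Emc8 made up 78.1% of the Emc8 and Emc9 transcripts by CPM per kb, and this share overlapped between the groups (exact permutation p = 0.7, adjusted p = 0.7). The share of Mmgt1 in the Mmgt1 and Mmgt2 transcripts was 59.7%, 56.9% and 64.6% for HETStra8 mice 1 to 3, against 65.6%, 67.4% and 72.2% for KOStra8 mice 1 to 3. All KOStra8 mice lay above all controls, which gives p = 0.1, the smallest that an exact two-sided permutation test of 3 mice against 3 can give (adjusted p = 0.333). With the longest transcript as the length of each gene, Mmgt1 would make up 50.5% and not 64.4% over the 6 mice, so the level of this share depends on the gene models.

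**Figure D3:**
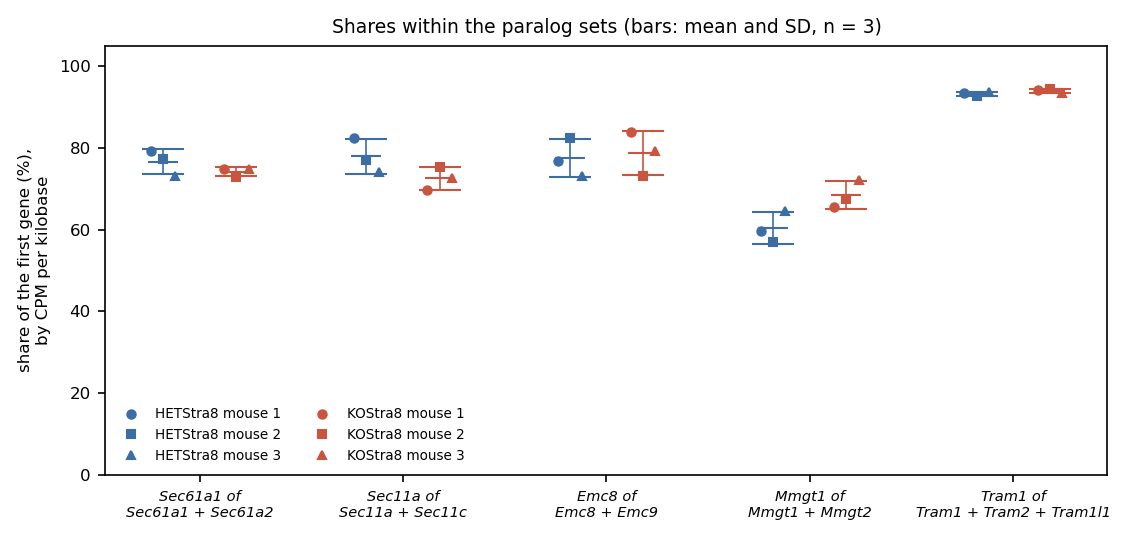
The vertical axis gives, for 5 sets of paralogs, the share of the first gene in the summed level of the set in percent, from CPM per kilobase, with 1 point per mouse and bars for the mean and SD of the 3 mice of a group. The groups overlap for Sec61a1, Sec11a, Emc8 and Tram1, and for Mmgt1 the KOStra8 mice, at 65.6% to 72.2%, lie above the controls, at 56.9% to 64.6%.

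Fold changes of the members followed the GC content of their transcripts, as did those of all genes tested. The Spearman rho of log2 fold change with GC content was −0.61 over the 34 members and −0.46 over 21457 genes, which share the same 6 libraries and are not independent replicates. Over all genes, the median log2 fold change was 0.30 in genes of 35 to 40% GC and −0.14 in genes of 55 to 60% GC. The 17 members below the median GC content of the list had a median log2 fold change of 0.01 and the 17 others one of −0.15. After the correction, in which a smooth curve of counts on GC content and exonic length was taken out of each library, these medians were −0.08 and −0.07, and rho was 0.09 over the members and −0.01 over all genes. Because the trend runs with the genotype in these libraries, a correction for it can also take out differences between the groups, and the GC trend and the genotype cannot be told apart.

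In the corrected fit the median log2 fold change of the list was −0.08, against −0.06 without the correction, beside −0.01 for all genes. This value lay within the range from −0.087 to −0.027 found on leaving out 1 mouse at a time. Of the members 7 lay above 0 and 27 below, where 10339 of all genes tested lay above 0 and 11126 below. No member was higher at an unadjusted p below 0.05, where 3.87% of all genes were. Lower at that threshold were 5, namely Ssr1, Ssr3, Sec11a, Spcs1 and Emc10, where 3.77% of all genes were, and only Emc10 was also among the lower members without the correction. The groups did not overlap in corrected CPM for 3 members, Ssr1, Sec11a and Emc10, where 13.5% of all genes did not overlap in either direction. The lowest adjusted p of a member was 0.436. By complex, the corrected medians were −0.15 for TRAP, −0.15 for the EMC, −0.10 for Sec63 and the TRAM genes, −0.06 for signal peptidase, −0.05 for the SRP and its receptor and −0.03 for the Sec61 channel.

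**Figure D4:**
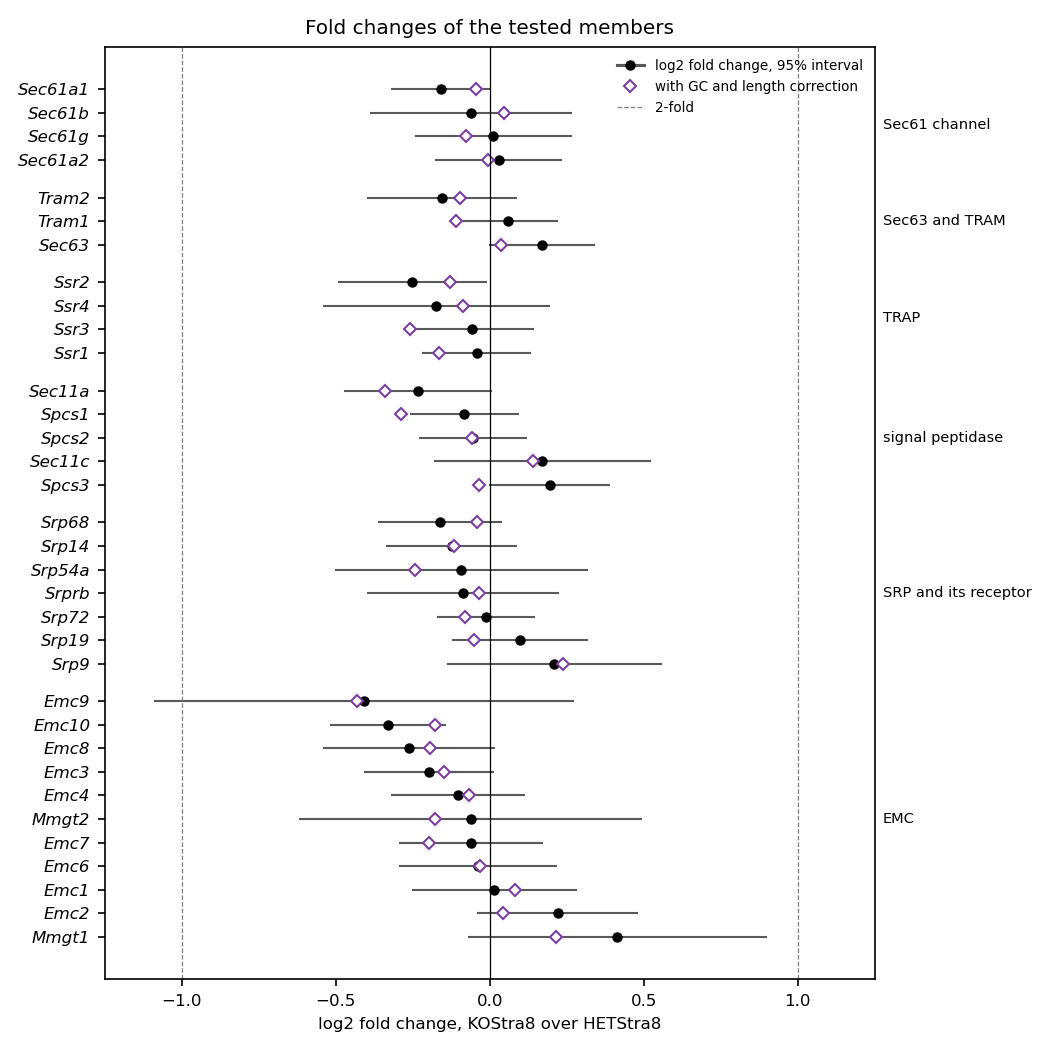
The horizontal axis gives the log2 fold change, KOStra8 over HETStra8, of each of the 34 members tested, with filled points and bars for the estimate and its 95% interval, open diamonds for the estimate with the GC and length correction, and dashed lines at a 2-fold change. All estimates lie between −0.41 and 0.41, 33 of the intervals lie inside the dashed lines, and the diamonds of 6 members, among them Spcs3, Tram1 and Srp19, lie on the other side of 0 from their filled points.

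**Figure D5:**
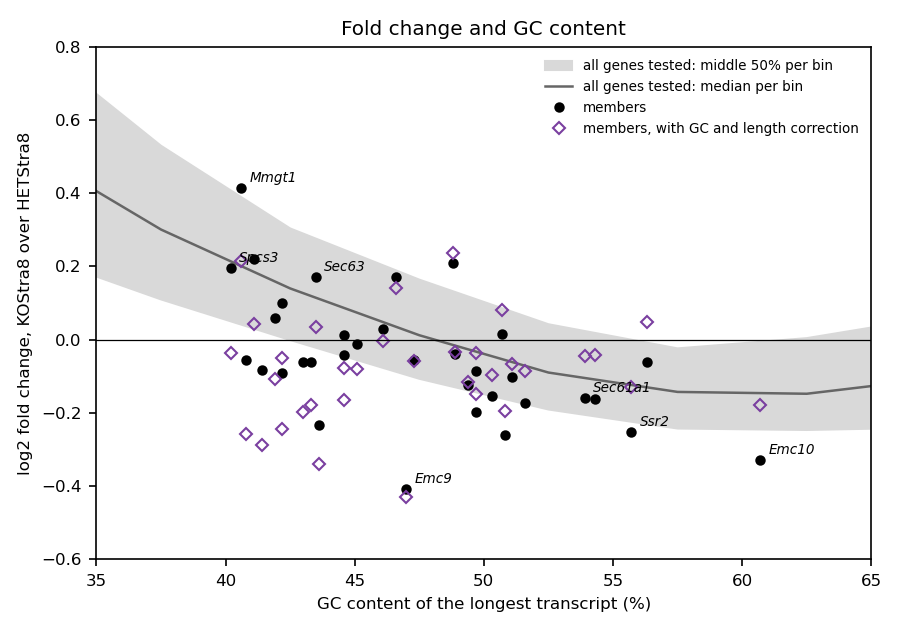
The horizontal axis gives the GC content of the longest transcript in percent and the vertical axis the log2 fold change, KOStra8 over HETStra8, with the median and middle 50% of all genes tested in bins of GC content in grey, the members as filled points, and the members with the GC and length correction as open diamonds. The grey line falls from 0.30 in the bin of 35 to 40% to −0.14 in that of 55 to 60%. The filled points also tend to fall, from Spcs3 at 40.2% GC to Emc10 at 60.7%. Most of those at 40 to 45% GC lie below the median of that bin, 0.14.

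Genes that work next to these complexes were compared in the same way: the SRP receptor alpha subunit, Sec62, other copies of Srp54, the GET pathway for tail-anchored proteins, accessory complexes for membrane proteins of several spans, the signal peptide peptidases, and helpers of the translocon. All 32 were tested and none passed the cutoffs or an adjusted p of 0.05. Their median log2 fold change was −0.12, with 7 above 0 and 25 below, and −0.04 with the correction, with 10 above and 22 below. At an unadjusted p below 0.05, 2 were higher, beside 7.13% of all genes tested, and 6 lower, beside 5.12%. With the correction 1 was higher, beside 3.87% of all genes, and 2 were lower, beside 3.77%. All KOStra8 mice lay above all controls for 1 of the 32, beside 9.33% of all genes tested. They lay below all controls for 9 of the 32, beside 8.43%.

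Rrbp1, a ribosome-binding protein of the rough ER, was at 218, 236 and 240 CPM in HETStra8 mice 1 to 3 and at 258, 261 and 274 CPM in KOStra8 mice 1 to 3, with no overlap. Its log2 fold change was 0.19 (SE 0.07, unadjusted p = 0.0154), and 0.32 with the correction, at an unadjusted p = 0.000653 and an adjusted p = 0.165 in edgeR's quasi-likelihood test. Ccdc47, of a complex that guides membrane proteins past the channel, had a log2 fold change of 0.26 (unadjusted p = 0.0268, adjusted p = 0.35 in edgeR's test), and its groups overlapped. Without HETStra8 mouse 3 it was 0.38, at an adjusted p of 0.0318, where 4.90% of all genes tested were below 0.05. Its levels were 33.6, 32.0 and 40.8 CPM in HETStra8 and 43.9, 40.6 and 42.8 CPM in KOStra8 mice.

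Nomo1, a partner of nicalin at the translocon, was at 205, 190 and 157 CPM in HETStra8 mice 1 to 3 and at 153, 150 and 144 CPM in KOStra8 mice 1 to 3. HETStra8 mouse 3 was nearer to the KOStra8 mice than to the other controls. The log2 fold change of Nomo1 was −0.31 (adjusted p = 0.230 in edgeR's quasi-likelihood test) with all mice and −0.40 (adjusted p = 0.00362) without that mouse. In the fit without it, 4.90% of all genes tested passed an adjusted p of 0.05, against 0.0233% with all mice. Leaving out the control nearest to the KOStra8 mice tends in itself to set the groups further apart. Bag6 and Sgta, which hand tail-anchored proteins to the GET pathway, both had a log2 fold change of −0.24 and no overlap (edgeR's test, adjusted p-values of 0.183 and 0.264). Without HETStra8 mouse 3 these were −0.26 and −0.28, with adjusted p-values of 0.0280 and 0.0473. At an unadjusted p below 0.05 lay also Srpr, the alpha subunit of the SRP receptor, with a log2 fold change of −0.19, Sppl2b, a signal peptide peptidase-like protease, with −0.20, and Sil1, an exchange factor of BiP, with −0.23.

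With the correction the log2 fold changes of Nomo1, Bag6, Sgta, Srpr, Sppl2b and Sil1 were −0.18, −0.10, −0.09, −0.14, −0.05 and −0.09. Caml, listed as Camlg, was at 30.6, 29.8 and 31.7 CPM in HETStra8 and 26.5, 28.9 and 27.6 CPM in KOStra8 mice, with no overlap, a log2 fold change of −0.15 (SE 0.09) and an adjusted p of 0.539. The testis-restricted Ubl4b, a form of a GET pathway subunit, and Sppl2c, a protease of spermatids, had log2 fold changes of −0.11 and −0.11 (adjusted p-values of 0.559 and 0.591). Sec62, the partner of Sec63, had overlapping groups and a log2 fold change of 0.27, at an adjusted p of 0.409, and was named after its values were seen. Without HETStra8 mouse 3 it was 0.45, at an adjusted p of 0.0162, where 4.90% of all genes tested were below 0.05.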

How the data were processed

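Testis RNA of 3 KOStra8 and 3 HETStra8 mice was sequenced as poly(A)+ RNA in directional paired-end libraries. The authors deposited raw counts of reads per gene for each mouse, 1 table per library and without normalization. The submitters' processing notes name FastQC, Trimmomatic, STAR 2.7.1a, Picard 2.20.4, StringTie 2.0.4, featureCounts 1.6.0, HTSeq, ChIPseeker and the mm10 or GRCm38 build, without roles or order. The strand setting and the annotation release are not given in the sources used here. All 55536 identifiers occur in GENCODE mouse release M21, which gave symbols, positions, lengths and GC content.

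Counts were compared in R 4.3.3 with edgeR 4.0.16 (filterByExpr, TMM, robust two-sided quasi-likelihood F test, Benjamini-Hochberg adjustment over 21465 genes), with the thresholds of the study's methods, a 2-fold change and an adjusted p below 0.01. An unadjusted p below 0.05 served as a description. CPM per kb used the union of exons as the length. Shares of paralogs were compared with exact permutation tests. Alternatives were DESeq2 size factors, no filter, DESeq2 1.42.0, limma-voom (limma 3.58.1), the replicate number as a block, offsets from a loess curve per library on GC content and length (span 0.3, genes above a log2 CPM of 2), other thresholds, and leaving out each mouse. Promoter sequences came from RefSeq (GRCm38.p6). The steps were tested on simulated data.

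Every member is named, and so are Sel1l, the related genes at an unadjusted p below 0.05, Ubl4b and Sppl2c. Outside this rule, Srp54b and Srp54c are named as copies of Srp54a, Caml as a listed gene, and Sec62 after its values were seen. The members and lists were chosen with earlier results of these data known. The labels give each library its own mouse number, so p-values measure the spread between mice, and between 28875108 and 36526695 counts per library limit the precision of genes with few counts. A test of 3 mice against 3 by permutation cannot give a p below 0.1.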

Additional observations from a re-analysis of the deposited data

How the results depend on the processing

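Each of the 34 member fold changes was recomputed under 13 alternatives, and 18 kept their sign in all of them. The lowest adjusted p of a member was 0.0324 (Emc10, DESeq2), in a fit for which the share of all genes was not computed. No member changed sign with DESeq2 size factors, no filter, DESeq2, limma-voom or the replicate block alone. With the GC and length correction, and with this correction and the replicate block, the log2 fold change turned in Sec61a2 (−0.005 and −0.003), Sec61b (0.047 and 0.046), Sec61g (−0.077 and −0.073), Tram1 (−0.109 and −0.106), Spcs3 (−0.036 and −0.028) and Srp19 (−0.050 and −0.045). Leaving out 1 mouse at a time turned 13 small fold changes, which ranged from −0.035 to 0.110 in Sec61a2, −0.121 to 0.011 in Sec61b, −0.047 to 0.064 in Sec61g, −0.084 to 0.028 in Ssr1, −0.006 to 0.283 in Sec11c, −0.096 to 0.005 in Spcs2, −0.219 to 0.017 in Srp54a, −0.050 to 0.026 in Srp72, −0.208 to 0.057 in Srprb, −0.107 to 0.114 in Emc1, −0.267 to 0.040 in Mmgt2, −0.098 to 0.074 in Emc6 and −0.119 to 0.059 in Emc7.

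The 2 members higher at an unadjusted p below 0.05 became 0 with DESeq2 or the GC and length correction, 1 with limma-voom, the replicate block, or the correction with the block, and 0 to 3 without 1 mouse. The 3 lower members became 5 with the correction and 1 to 6 without 1 mouse. With an unadjusted p below 0.05 at any fold in place of the cutoffs, 2 members were higher and 3 lower, and 2 related genes were higher and 6 lower. Members without overlap between the groups went from 7 to 3 with the correction, where 13.5% of all genes did not overlap, and to 8 to 14 without 1 mouse. The 14 arose without HETStra8 mouse 3 or KOStra8 mouse 2, where 37.3% and 30.4% of all genes did not overlap. For the counts at an unadjusted p below 0.05, that share was computed with all mice, with the correction and without HETStra8 mouse 3 only. Of the related genes, the 2 that were higher became 4 without a filter or with the replicate block, 1 with the correction, with or without the block, and 0 to 4 without 1 mouse. The 6 that were lower became 2 with the correction, 1 with the correction and the block, and 2 to 9 without 1 mouse. Their median log2 fold change of −0.116 became −0.044 with the correction, with or without the block, and −0.157 to −0.055 without 1 mouse, the latter without HETStra8 mouse 1. The median of the members, −0.061, became −0.087 to −0.027 without 1 mouse, the latter without HETStra8 mouse 1. Sel1l ranged from −1.129 to −1.007 without 1 mouse, and missed the cutoffs without KOStra8 mouse 2 or KOStra8 mouse 3.

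Whether the replicate numbers pair the samples is not known. Same-numbered mice deviated from their group means with correlations of −0.060, −0.053 and 0.108, which cannot exclude a pairing. The replicate block changed the number of higher members to 1 and no other count of members by over 1.5 times. With the block the higher member was Srp9 (unadjusted p = 0.0394 in edgeR's quasi-likelihood test), and Sec63 and Spcs3 were at 0.0691 and 0.0652. The cause of these changes was not tested. Mmgt1, Mmgt2 and Emc9 had few counts, and the parts of depth and of the spread between mice in their imprecision were not tested.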
